A study of Homo sapiens with 6 samples.

Results

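Stress-induced secreted hormones and growth factors were examined in HSC-4, a human cell line established from oral squamous carcinoma. The 6 genes *GDF15*, *INHBE*, *ADM2*, *STC2*, *FGF21* and *VEGFA* were taken by their current symbols from the 58884 Ensembl genes of the deposited count tables, and all 6 were found. They were picked with their difference between the DAPT and the control cells already known, so their values in that comparison are given as a description and without a test. The study compared 3 control libraries with 3 libraries of cells given 50 µM DAPT for 24 h, all from mRNA of the same line. DAPT blocks γ-secretase, which cuts activated Notch receptors so that their intracellular part can enter the nucleus. The paper names DMSO as vehicle, whereas the control columns are headed GM, an abbreviation left unexplained, and the series text speaks of normal growth medium. An effect of the vehicle therefore cannot be told apart from that of DAPT if the controls received growth medium alone. The comparison addressed which genes change when γ-secretase is blocked in oral cancer cells, and a single cell line was its only model.

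When amino acids run short or unfolded protein builds up in the endoplasmic reticulum, kinases phosphorylate the translation factor eIF2, most protein synthesis slows and the transcription factor ATF4 is made. This is the integrated stress response, and part of its output leaves the cell as hormones and growth factors. GDF15 is a distant relative of the TGF-β family that lowers food intake through a receptor of the hindbrain. INHBE is the subunit of activin E, which is best known from liver. ADM2, also called intermedin, is a peptide of the calcitonin family that relaxes blood vessels. STC2 is a secreted glycoprotein that blocks the protease PAPP-A, and FGF21 is a fasting hormone made mainly by liver. VEGFA drives the growth of blood vessels and responds both to ATF4 and to the hypoxia-inducible factors.

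Upstream sequences of *GDF15*, *ADM2*, *STC2* and *FGF21* were matched in RefSeq's table for GRCh38.p14, and *INHBE* and *VEGFA* were not in it. The 250 bases before each start site were searched on both strands for TGATGNAA, the core of the response element bound by C/EBP and ATF factors. It was found in 1 of the 4 genes, *FGF21*, and in 3.14% of 35116 upstream sequences of that length. The match lay from base -54 to base -47, counted from the start site. The stretch that holds it (chr19:48755391-48755523, plus strand) is shown because *FGF21* was the member with almost no reads, and capitals mark the match, which lies on the opposite strand.
FGF21: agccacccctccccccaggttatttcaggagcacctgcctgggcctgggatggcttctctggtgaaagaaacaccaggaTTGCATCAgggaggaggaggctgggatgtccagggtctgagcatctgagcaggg
A TATA box (TATAAA) was found in 1 of the 4 genes, *GDF15*, and in 10.7% of all upstream sequences. It is shown within its 30 surrounding bases (chr19:18386117-18386146, plus strand), with the TATA box in capitals.
GDF15: aagtccggggacTATAAAggccggtccggc
The GC box (GGGCGG), which binds factors of the Sp family, was found in *GDF15* and *ADM2* and in 42.6% of all upstream sequences. *ADM2* held 3 matches on the opposite strand, which stand in capitals in its upstream sequence (chr22:50481293-50481542, plus strand).
ADM2: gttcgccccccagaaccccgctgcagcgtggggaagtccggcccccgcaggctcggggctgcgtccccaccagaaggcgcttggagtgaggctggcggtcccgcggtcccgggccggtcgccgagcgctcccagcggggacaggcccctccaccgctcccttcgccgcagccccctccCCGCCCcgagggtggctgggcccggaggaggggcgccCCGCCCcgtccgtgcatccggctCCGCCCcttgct
GC content was 78.8% in this *ADM2* sequence and between 58.4% and 63.6% in the other 3, against a median of 58.0% over all upstream sequences. None of the 4 genes held TGACGT (7.10% of all), the hypoxia response core ACGTG (18.5%), the RBPJ core TGGGAA (20.8%) or the endoplasmic reticulum stress element (0.0740%) in these bases. The count tables place the upstream 250 bases of *STC2*, and 241 of those of *GDF15*, inside exons of longer transcripts of the same gene. Of the 250 bases upstream of *FGF21*, 101 lie in exons of another gene, *FUT1*, and the stretch shown is the part outside them.

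Total counts lay between 12276313 and 16317672 per library, so 3 reads, taken as the smallest signal, corresponded to 0.186 to 0.248 CPM after TMM scaling, counting error only. The Notch target genes checked the treatment. Of 10 listed, 7 were tested and all 7 were lower with DAPT in edgeR's test, against 18.0% of all tested genes. Among them were *HEYL* (log2 fold change -2.51), *HES2* (-2.45), *HEY1* (-1.98) and *HES1* (-0.77). The label of a squamous carcinoma line was met by *KRT5* (1276 to 2757 CPM), *TP63* (246 to 383.5 CPM) and *DSG3* (440 to 482 CPM), while *KRT14* was at 3.54 CPM at most. In edgeR's test 7 of the 10 squamous markers were lower and 2 higher with DAPT, against 18.0% and 17.2% of all tested genes. Their summed level was 5927 to 6210.0 CPM in controls and 3949 to 4101 CPM with DAPT, and the largest changes were in *KRT14* (-2.79), *KRT6A* (-1.48) and *KRT5* (-1.04). Their part in the results on the hormones was not tested. Control replicate 1 stood apart by fibroblast markers. The summed level of *COL1A1*, *COL1A2*, *COL3A1*, *DCN*, *LUM* and *PDGFRB* was 553 CPM there and 50.0 to 58.3 CPM in the other 5 libraries. *COL1A2* alone was at 215 CPM in control replicate 1 and between 0.195 and 2.02 CPM elsewhere. The liver markers *ALB*, *APOA1*, *TTR*, *APOB* and *FGB* summed to 0.909 to 1.84 CPM, with *TTR* and *APOB* at 0 reads in all 6 libraries. The endothelial markers *PECAM1*, *VWF*, *CDH5*, *TEK* and *CLDN5* summed to 0.994 to 1.81 CPM in controls and 2.41 to 2.99 CPM with DAPT, with *CLDN5* at 0 reads throughout. Of these, *CDH5*, an endothelial cadherin, was called higher (log2 fold change 2.42, edgeR adjusted p = 4.93e-05), at 0.166 to 0.506 CPM in controls and 1.39 to 2.34 CPM with DAPT. *CDH5* passed the filter on low counts only through the DAPT libraries, where it was high, so nothing is read from its call. The leukocyte markers summed to 0.361 CPM at most. In bulk RNA, fewer cells of a type and less RNA per cell cannot be told apart.

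With DAPT, 5 of the 6 genes were at higher levels in every library than in any control library, and the sixth, *FGF21*, was at the edge of detection. *INHBE* and *GDF15* differed most, *ADM2* was close to them, and *STC2* and *VEGFA* differed less. Their log2 fold changes ran from 0.28 to 2.13, against a median of 0.01 over the 15001 genes tested. By edgeR's quasi-likelihood test at an adjusted p-value under 0.05, 35.2% of all tested genes were called and 17.2% were called higher. Of the 6 members 5 passed the filter on low counts, *INHBE* through its DAPT libraries, and no test of them is drawn on, since the choice of members fixed its outcome. Without TMM factors the number of genes called over the whole table changed from 2574 higher and 2707 lower to 3445 higher and 2156 lower. At least a 2-fold increase was seen in 3 of the 5, *INHBE*, *GDF15* and *ADM2*. Of all tested genes, 0.6% were both called higher and raised at least 2-fold. That share leaves out 2-fold increases without a call. The groups did not overlap, with DAPT above control, in all 5, against 23.6% of all tested genes in that direction and 46.3% in either. Because the genes were chosen on this comparison, nothing is read from these counts.

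*GDF15* (ENSG00000130513, chromosome 19 of GRCh38, 18374731 to 18389176, plus strand) held 121, 125 and 115 reads in the control libraries and 439, 495 and 384 reads in the DAPT libraries. Scaled to library size with TMM factors, as CPM, it was at 7.54, 9.03 and 9.53 CPM in control replicates 1 to 3 and at 28.5, 36.2 and 29.5 CPM with DAPT. The lowest DAPT library was 2.99-fold above the highest control library. Its means were 8.70 ± 1.04 CPM in controls and 31.4 ± 4.18 CPM with DAPT (SD, n = 3 each). This was 3.63-fold, or 1.86 on the log2 scale (standard error 0.11). Among the 15001 tested genes this was the 11th largest increase by rank in log2 fold change, from a level at percentile 44.6 of mean CPM over all 6 libraries.

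*INHBE* (ENSG00000139269, chromosome 12, 57452323 to 57459280, plus strand) was the weakest expressed of the genes that could be tested, with 15, 21 and 6 control reads. The DAPT libraries held 61, 74 and 50 reads. Its levels were 0.934, 1.52 and 0.497 CPM in controls and 3.96, 5.41 and 3.84 CPM with DAPT. Control libraries differed among themselves by more than in any other tested member, with a coefficient of variation of 52.1%, yet the lowest DAPT library lay 2.53-fold above the highest control. The log2 fold change was 2.13 (standard error 0.27), the sixth largest of all tested genes. It ran from 1.85 without control replicate 3 to 2.55 without control replicate 2. Control replicate 3 held fewer than 10 reads, so *INHBE* passed the filter on low counts through the DAPT libraries, where it was high.

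*ADM2* (ENSG00000128165, chromosome 22, 50481543 to 50486440, plus strand) was at 4.30, 3.54 and 3.98 CPM in the controls, from 69, 49 and 48 reads. With DAPT it was at 11.1, 12.9 and 13.4 CPM, from 171, 176 and 175 reads. The spread within each group was narrow, with coefficients of variation of 9.67% and 9.76%. Its log2 fold change was 1.65 (standard error 0.13), or 3.14-fold, and it was 1.81 when the first library of both groups was left out, a choice made after the data were seen.

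*STC2* (ENSG00000113739, chromosome 5, 173314713 to 173329503, minus strand) was abundant before treatment, at 131, 139.8 and 136 CPM in the controls, and stood at percentile 92.2 of mean CPM over all 6 libraries. With DAPT it was at 201, 231 and 219.9 CPM. The log2 fold change was 0.68 (standard error 0.06), from 136 ± 4.43 to 217 ± 15.2 CPM (SD, n = 3 each). Every DAPT library was at least 1.44-fold above every control library.

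*VEGFA* (ENSG00000112715, chromosome 6, 43770184 to 43786487, plus strand) was at 171, 167 and 159 CPM in the controls and at 201, 206 and 198 CPM with DAPT. The groups lay close together but did not overlap, and the lowest DAPT library was 1.16-fold above the highest control library. The log2 fold change was 0.28 (standard error 0.05), or 1.22-fold, smaller than in the other 4 tested members, and it ranked 2150th among all tested genes. Exons of ENSG00000272114 on the opposite strand cover 1.30% of the exonic bases of *VEGFA*, and counting was by strand. The library kit was directional, and the sources do not say which read orientation it gave. In 425 of 438 pairs of a protein-coding gene and a non-coding gene lying on the opposite strand within its exons, the protein-coding gene held more reads per base, which is the order that counting on the sense strand gives. No other member shares exonic bases with another gene on either strand.

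*FGF21* (ENSG00000105550, chromosome 19, 48755559 to 48758333, plus strand) held 0, 0 and 0 reads in the controls and 0, 2 and 2 reads with DAPT. All 6 libraries were thus under 3 reads, the smallest signal taken here, and no fold change is given. A level of up to 0.248 CPM in a control library would be compatible with these counts. The C/EBP-ATF match shown above lies upstream of this gene.

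**Figure D1:**
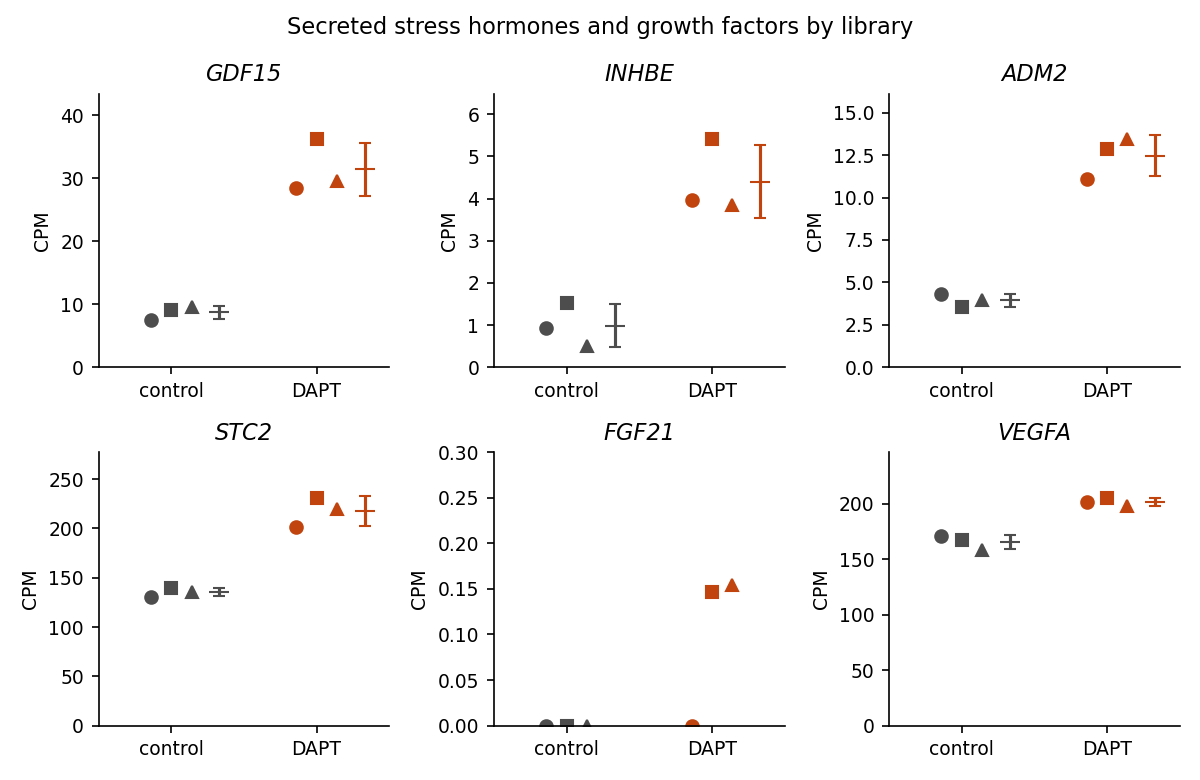
Level of each gene in CPM (TMM-scaled read counts as a share of the library, linear axes from 0) in the 3 control libraries (grey) and the 3 DAPT libraries (orange), where circles, squares and triangles are replicates 1, 2 and 3 and bars show mean ± SD. All DAPT libraries lie above all control libraries in every panel but that of *FGF21*, which has no bars and where 4 of the 6 libraries are at 0.

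Levels can be compared between genes only per length, as FPKM, here TMM-scaled CPM divided by the exonic length of the gene in kilobases. In the controls the order was *STC2* (22.1 ± 0.723 FPKM), *VEGFA* (11.5 ± 0.430), *GDF15* (4.17 ± 0.496), *ADM2* (0.918 ± 0.0887), *INHBE* (0.323 ± 0.168) and *FGF21* at 0 (SD, n = 3 libraries each). No neighbours in this order overlapped in their library values. With DAPT, *GDF15* was at 13.7, 17.3 and 14.1 FPKM, beside *VEGFA* at 13.9, 14.3 and 13.7 FPKM. These 2 genes overlapped, so their order with DAPT was not separable beyond the spread of libraries, whereas in the controls *VEGFA* stood 2.75-fold above *GDF15*. *STC2* stayed first (35.5 ± 2.48 FPKM), followed after *GDF15* and *VEGFA* by *ADM2* (2.91 ± 0.284) and *INHBE* (1.45 ± 0.287). The exonic length of *VEGFA* in the count tables is 14431 bases, against 2087 for *GDF15* and 6128 for *STC2*, since it joins the exons of every annotated transcript. The FPKM of *VEGFA* is therefore low for a given number of reads.

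**Figure D2:**
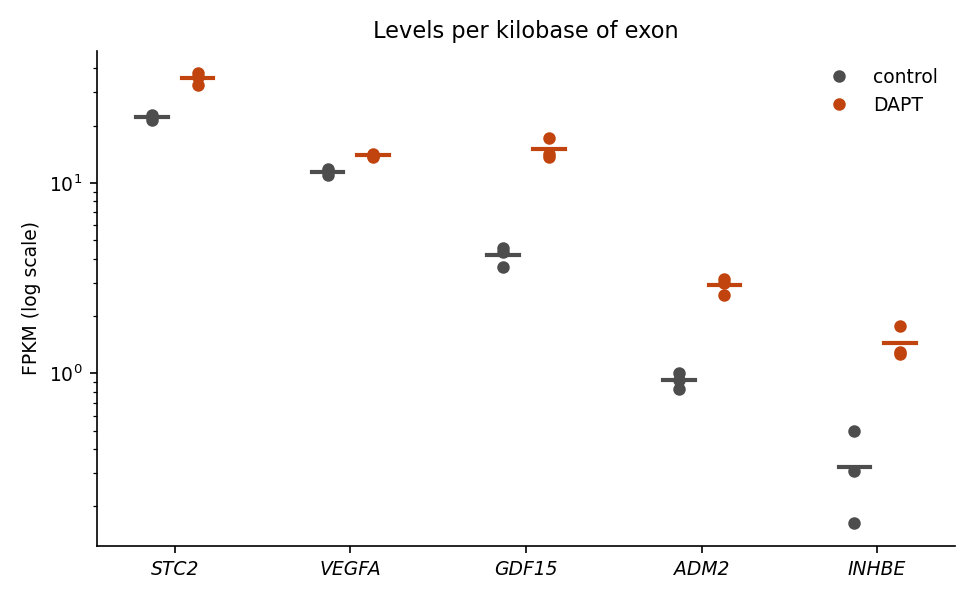
FPKM of the 5 members with reads in the controls, on a log axis, with points for libraries (control grey, DAPT orange, n = 3 each) and lines for means. *GDF15* moves from 4.17 to 15.0 FPKM and reaches the values of *VEGFA*, while *STC2* is highest in both groups.

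Relatives of these hormones were lower or were not called. A list of 22 paralogous ligands was written from general knowledge, with earlier results of these data known. Of these, 15 could be tested, and 7 were lower and 0 higher with DAPT (18.0% and 17.2% of all tested genes). The calls came from edgeR's quasi-likelihood test, adjusted as for all genes. The number higher was also 0 at an unadjusted p-value under 0.05, with DESeq2 and with limma-voom. Their median log2 fold change was -0.28. *STC1*, the other stanniocalcin, fell from 90.0 ± 2.45 to 62.4 ± 3.93 CPM (SD, n = 3 each), which was -0.53 on the log2 scale (standard error 0.06, edgeR adjusted p = 3.21e-07). *ADM*, which encodes adrenomedullin, the vasodilator peptide most like ADM2, fell at a log2 fold change of -0.28 (standard error 0.08, edgeR adjusted p = 0.00938). That call was lost without control replicate 3, where the log2 fold change was -0.21. *INHBA*, the subunit of activin A, fell from 51.4 ± 4.32 to 40.3 ± 4.76 CPM (SD, n = 3 each, log2 fold change -0.35, edgeR adjusted p = 0.00304). *BMP2* (-0.45) and *BMP7* (-0.46), signals of the same superfamily, fell as well.

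The vascular growth factors next to *VEGFA* were either lower or not called. *VEGFB* fell at a log2 fold change of -0.28 (standard error 0.07, edgeR adjusted p = 0.00241). *PGF*, placental growth factor, had a log2 fold change of -0.70 (edgeR adjusted p = 0.0211) at a mean of 2.86 CPM in controls. Its call was lost without control replicate 1 (-0.59), control replicate 2 (-0.63) or DAPT replicate 2 (-0.63). *VEGFC*, a growth factor of lymphatic vessels, had a log2 fold change of -0.12 and did not pass the test. *FGF19*, the gut hormone most like FGF21, and *FGF23*, a bone hormone, held 0 reads in all 6 libraries.

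Ratios within a library show the same contrast per length. *STC2* stood to *STC1* as 0.998, 1.02 and 1.03 in the control libraries, and as 2.03, 2.59 and 2.47 in the DAPT libraries. Per joined exonic length, the pair was thus at nearly equal levels in controls and apart with DAPT. The ratio of *ADM2* to *ADM* was 0.0683, 0.0581 and 0.0556 in controls and 0.195, 0.247 and 0.261 with DAPT. *INHBE* reached 0.0473, 0.0888 and 0.0250 of the level of *INHBA* in controls and 0.244, 0.421 and 0.250 with DAPT. In both of these pairs the stress-induced gene remained the less abundant per length in every library. *VEGFA* stood to *VEGFB* as 0.222 ± 0.0155 in controls and 0.332 ± 0.0331 with DAPT (SD, n = 3 each). The joined exonic length of *VEGFA*, 14431 bases, lowers its FPKM, so this ratio does not show which of them is more abundant. The upper term of each ratio was chosen on this comparison, so the ratios are described and not tested.

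**Figure D3:**
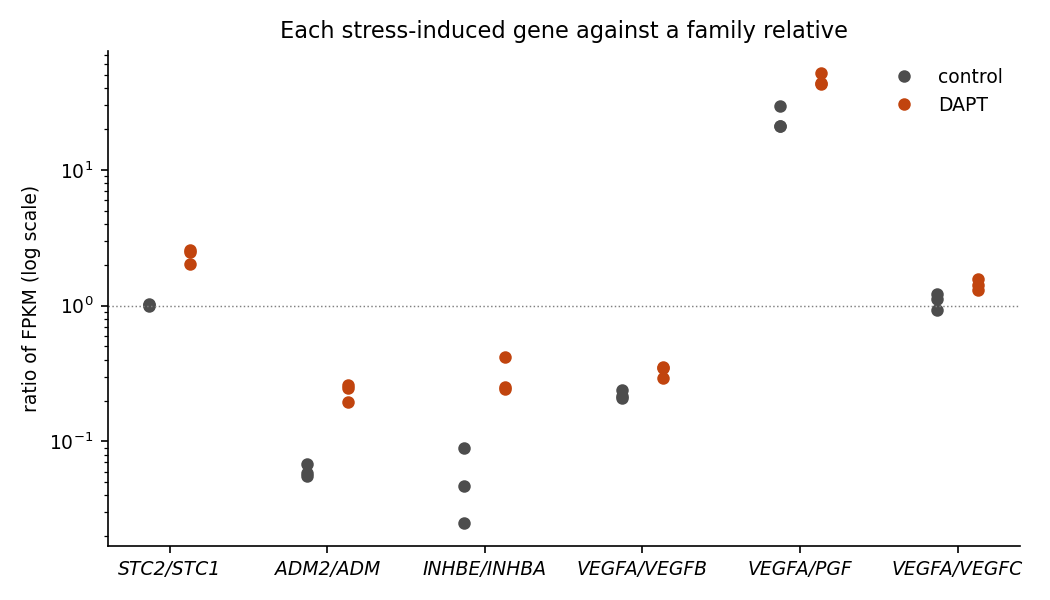
Ratio of FPKM between a stress-induced gene and a relative, per library, on a log axis (control grey, DAPT orange, n = 3 each), with a dotted line at equal levels. For every pair the DAPT libraries lie above the control libraries, as for *STC2* to *STC1* with 0.998 to 1.03 in controls and 2.03 to 2.59 with DAPT. The joined exonic length of *VEGFA* lowers its ratios relative to the dotted line.

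Receptors for several of these hormones were not detected in HSC-4 cells. *GFRAL*, the GDF15 receptor, *KLB*, the klotho coreceptor for FGF21, and *KL*, a related klotho gene, held 0 reads in all 6 libraries. The same was true of *RAMP2* and *RAMP3*, which pair with the receptor CALCRL for peptides such as ADM2, whereas *CALCRL* itself was at 2.67 ± 0.688 CPM in controls and 3.19 ± 0.433 CPM with DAPT (SD, n = 3 each). *RAMP1*, which also pairs with CALCRL, was detected, with 34, 48 and 23 reads in controls and 21, 25 and 20 with DAPT. All DAPT libraries lay below all controls in CPM, but the gene did not pass (-0.67 on the log2 scale, edgeR adjusted p = 0.0521). A count of 0 allows up to 3 reads per library, which is 0.186 to 0.248 CPM. The VEGF receptors *KDR*, *FLT1* and *FLT4* held at most 3, 7 and 1 reads in any library. The VEGF coreceptors *NRP1* and *NRP2*, by contrast, were expressed. *NRP2* fell from 79.0 ± 2.65 to 54.9 ± 1.69 CPM (SD, n = 3 each, log2 fold change -0.52, edgeR adjusted p = 2.9e-07), and *NRP1* had a log2 fold change of 0.12 and did not pass the test.

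Of 27 receptors and binding partners, 17 were tested, and 3 were lower and 3 higher with DAPT by edgeR's quasi-likelihood test, which is 17.6% in each direction and close to the 18.0% and 17.2% of all tested genes. Besides *NRP2*, the lower genes were *FGFR4* (log2 fold change -1.02, standard error 0.24) and *FGFR2* (-0.38, standard error 0.06), receptors for fibroblast growth factors. The higher genes were *BMPR2* (0.18), *ACVR1C* (0.35) and *ACVR2A* (0.35), receptors of the activin and BMP branch. Their number rested on single libraries. It was 0 without control replicate 3, 1 without DAPT replicate 1, 1 without DAPT replicate 2 and 6 without control replicate 1. *FGFR1* had a log2 fold change of -0.78 with control replicate 1 and -0.22 without it, and did not pass the test in either case.

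Binding proteins and processing enzymes were mostly lower. Of 15, 11 were tested, 7 were lower and 1 was higher (edgeR's quasi-likelihood test, adjusted p-value under 0.05), with a median log2 fold change of -0.36. Over all tested genes, 18.0% were lower and 17.2% higher. *PAPPA*, which encodes the protease that STC2 inhibits, fell from 30.5 ± 2.38 to 11.5 ± 0.814 CPM (SD, n = 3 each). The log2 fold change was -1.40 (standard error 0.09, edgeR adjusted p = 5.6e-11). Its level per length was exceeded by that of *STC2* 8.43 ± 0.814 times in controls and 36.0 ± 4.93 times with DAPT (SD, n = 3 each). *IGFBP4*, a substrate of that protease, fell at a log2 fold change of -0.39 (standard error 0.05). The follistatins, which trap activins, were lower too. *FST* fell at a log2 fold change of -1.61 (standard error 0.29, edgeR adjusted p = 0.00343) and *FSTL3* with -0.43 (standard error 0.08). In control replicate 1, where the fibroblast markers were high, *FST* was at 14.1 CPM against 8.09 and 7.87 CPM in the other controls, and without that library its log2 fold change was -1.27. *IGFBP5*, an IGF-binding protein, was at 23.7 CPM in control replicate 1 and did not pass the test (-3.60). The part of the fibroblast markers in these values was not tested. *FURIN*, a protease that cleaves proproteins of the TGF-β family, fell with -0.36, and *PAM*, which amidates peptide hormones, with -0.18. *PCSK7*, a protease of the furin family, was the gene that rose (0.26, standard error 0.07).

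**Figure D4:**
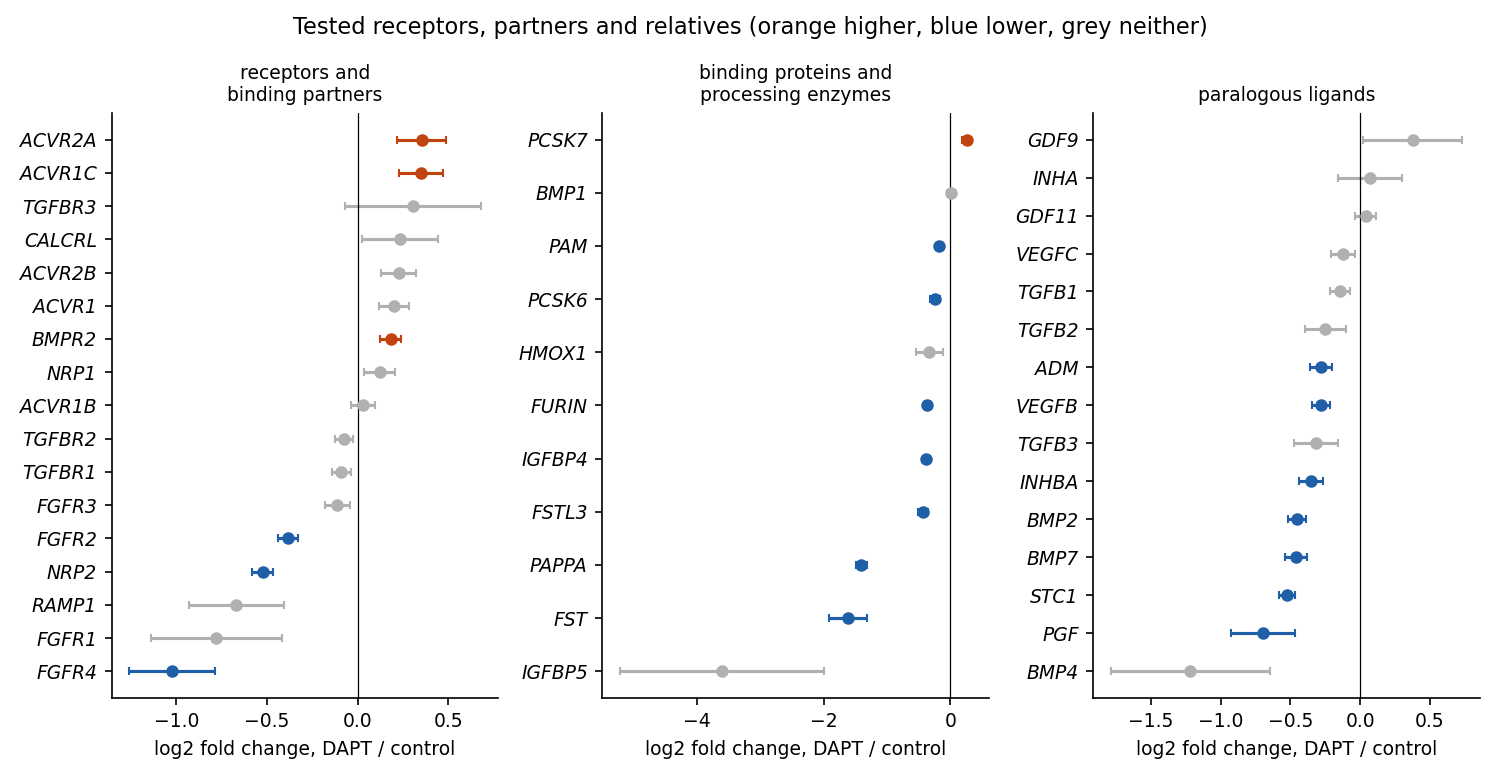
Log2 fold change (DAPT over control, points) with its standard error (bars) for the tested receptors and binding partners, binding proteins and processing enzymes, and paralogous ligands, from a fit to 3 against 3 libraries. Each panel has its own axis, and orange, blue and grey stand for higher, lower and neither at an adjusted p-value under 0.05. No paralogous ligand is orange, against 7 in blue.

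Most genes of the integrated stress response were higher, as these hormones were. Of 27 further genes of this response, all tested, 25 were higher with DAPT and 0 were lower in edgeR's test, also 0 at an unadjusted p-value under 0.05, with DESeq2 and with limma-voom. Among all tested genes, 17.2% were higher and 18.0% lower. Of the 25, 22 kept their call in each fit that dropped a library. The list had a median of 0.82 on the log2 scale. *CHAC1*, which degrades glutathione (2.07), *ASNS*, asparagine synthetase (1.97), and *TRIB3*, a pseudokinase that restrains ATF4 (1.81), rose most. *DDIT3*, which encodes the transcription factor CHOP, rose from 17.2 ± 1.09 to 41.0 ± 5.29 CPM (SD, n = 3 each, log2 fold change 1.25, edgeR adjusted p = 1.32e-09). *ATF4* itself rose less, from 147 ± 5.07 to 210.1 ± 11.1 CPM (SD, n = 3 each), or 0.51 on the log2 scale (standard error 0.05). *GDF15*, *INHBE* and *ADM2* stood at 1.65 to 2.13 beside 1.81 to 2.07 for the 3 genes above, and *STC2*, at 0.68, lay below the median of the list. This list was written when changes of several of its genes in these libraries were known.

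Of 11 genes for eIF2 kinases and their regulators, 4 were higher (36.4%) and 0 lower in edgeR's test. Over all tested genes, 17.2% were higher and 18.0% lower. None of the 11 was lower at an unadjusted p-value under 0.05, with DESeq2 or with limma-voom. DESeq2 called 3 higher, and 3 of the 4 kept their call in each fit that dropped a library. The largest increases were in *EIF2AK2* (0.34), which encodes the kinase PKR, *PPP1R15B* (0.30), a subunit of the eIF2 phosphatase, and *IMPACT* (0.23), an inhibitor of the kinase GCN2. In the unfolded protein response outside ATF4, 11 of 20 genes were higher (55.0%) and 3 lower (15.0%), with a median of 0.16. Of these 14 calls, 10 were kept in each fit that dropped a library, and the higher genes numbered 8 to 11 in those fits. *ERN1*, the sensor IRE1 (0.70), and *SEL1L*, an adaptor of endoplasmic reticulum degradation (0.54), rose most. The chaperone *HSPA5* rose by a log2 fold change of 0.20 (standard error 0.05) and *XBP1*, the transcription factor activated by IRE1, by 0.34 (standard error 0.05). *SDF2L1* (-0.49) fell, but lost its call without control replicate 3 (-0.46), DAPT replicate 1 (-0.39) or DAPT replicate 2 (-0.51). The other lower genes, named after their values were seen, were *MANF* (-0.47) and the chaperone *CALR* (-0.30).

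*VEGFA* differed in direction from most genes of the hypoxia response, to which it also belongs. Of 21 other hypoxia genes, 14 were lower and 1 higher with DAPT (edgeR's quasi-likelihood test, adjusted p-value under 0.05), with a median log2 fold change of -0.26. The shares over all tested genes were 18.0% lower and 17.2% higher. *CA9*, the carbonic anhydrase used as a hypoxia marker, fell from 155 ± 13.3 to 64.6 ± 1.24 CPM (SD, n = 3 each, log2 fold change -1.26, edgeR adjusted p = 5.52e-13). *PFKFB4* (-0.77) and *NDRG1* (-0.65) fell as well, and so did *HIF1A* (-0.26), the oxygen-regulated factor. The single higher gene, *ANKRD37* (0.57), lost its call without control replicate 1 (0.41), DAPT replicate 2 (0.49) or DAPT replicate 3 (0.55).

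Among 39 other secreted hormones and growth factors, 30 were tested, with a median log2 fold change of -0.08. In edgeR's test 6 were higher (20.0%) and 10 lower (33.3%) with DAPT, against 17.2% and 18.0% of all tested genes. *CXCL8*, a neutrophil chemokine, fell from 32.7 ± 1.80 to 13.6 ± 0.790 CPM (SD, n = 3 each, log2 fold change -1.26, edgeR adjusted p = 8.52e-11). *EDN1*, endothelin, fell by 1.05 on the log2 scale (standard error 0.19) and *CCN2*, connective tissue growth factor, by 0.93 (standard error 0.23). For *CCN2* the log2 fold change was -0.56 without control replicate 1. The largest increase was that of *BTC*, the EGF receptor ligand betacellulin (0.63, standard error 0.14), chosen after its value was seen. *GREM1*, a secreted BMP antagonist, held 1044 reads in control replicate 1 and 2 to 6 reads in each of the other libraries, beside the fibroblast markers of that library. It did not pass the filter, and its part in any result was not tested.

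**Figure D5:**
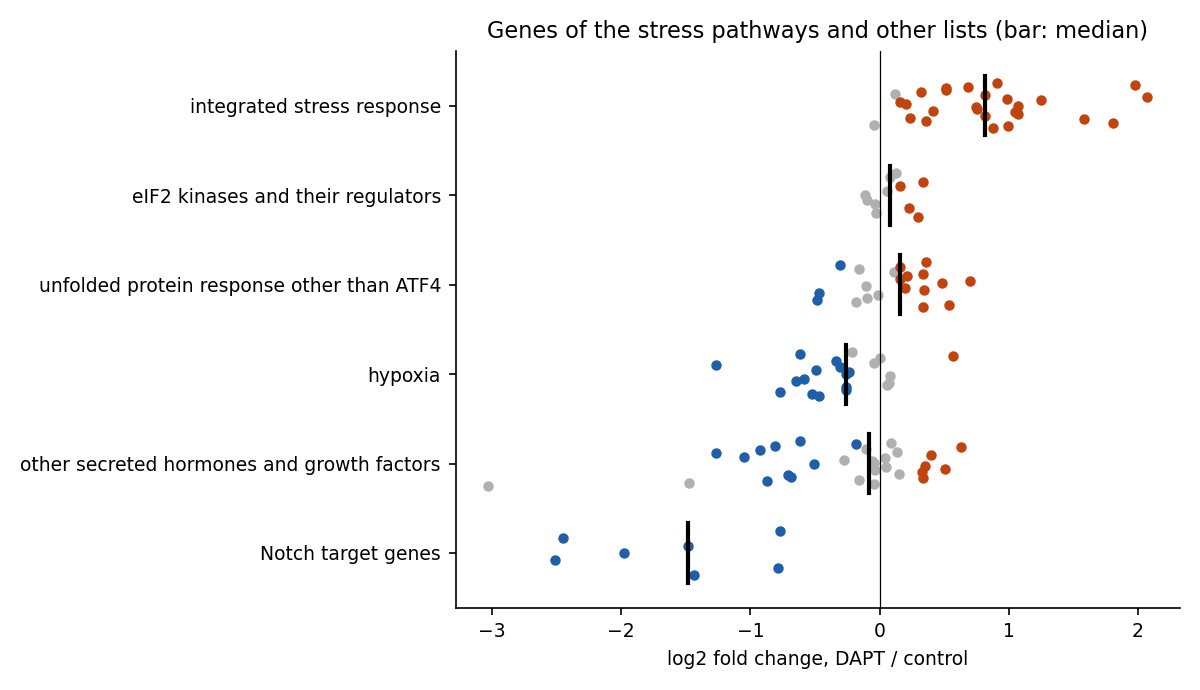
Log2 fold change (DAPT over control, 3 against 3 libraries) of each tested gene of 6 lists, with black bars for list medians and orange, blue and grey for higher, lower and neither at an adjusted p-value under 0.05. The medians run from -1.48 for Notch target genes to 0.82 for the integrated stress response, and the hypoxia list lies mostly below 0.

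The surroundings of the 6 genes were examined in a window of 100000 bases on either side. Of 29 tested neighbours, 8 were higher (27.6%) and 4 lower (13.8%) in edgeR's test, against 17.2% and 18.0% of all tested genes. *INHBE* had the largest number of higher neighbours, with 3 of 6. These were *DDIT3* (log2 fold change 1.25), *MARS1*, which encodes methionyl-tRNA synthetase (0.55, edgeR adjusted p = 4.23e-08), and *MBD6* (0.30). Next to *GDF15*, *JUND*, an AP-1 transcription factor, was higher (0.39) and *ISYNA1*, inositol phosphate synthase, was lower (-0.66). For *STC2* and *VEGFA* a single neighbour each was tested and neither passed.

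The genes most like each member over the 6 libraries were found by Pearson's r of log2 CPM, which is set mostly by the step between the groups that all of them share. For *GDF15* they were *ERN1*, *RCBTB1* and *VSX1* (r = 0.998 each), for *ADM2* *SLC7A11* (r = 0.999), *TMEM30A* (r = 0.999) and *CPD* (r = 0.998), and for *STC2* *EGLN1* (r = 0.999), *SEPTIN7-DT* and *DDIT3* (r = 0.998 each). *INHBE* was most like *PDXDC1* (r = 0.998), *SDCBP2-AS1* (r = 0.997) and *LIG4* (r = 0.996), and *VEGFA* most like *RNF103* (r = 0.997), *ZNF268* and *DGKE* (r = 0.996 each). Between 261 genes for *INHBE* and 682 genes for *ADM2* reached an r of at least 0.95, so these names mark a large class. Among the members themselves, r ran from 0.903 between *INHBE* and *ADM2* to 0.993 between *GDF15* and *STC2*.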

How the data were processed

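HSC-4 mRNA libraries, 3 control and 3 DAPT, were grouped by the sample titles, and dose and time were taken from the series text. After trimming (Trim Galore) and alignment to GRCh38 (HISAT2), the authors ran featureCounts 1.6.3 by strand on exons of Ensembl release 96 genes and deposited the raw read counts without normalization. The submitters' processing notes also list HTSeq and DESeq2, but the file headers name featureCounts. Reads that fitted several genes were not counted by its defaults, which lowers genes with near-identical copies. Symbols were matched for 58472 of 58884 identifiers.

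The counts were analysed with edgeR 4.0.16 in R 4.3.3 (filter by group with minimum count 10, TMM normalization, robust quasi-likelihood F test, Benjamini-Hochberg adjustment over 15001 genes). CPM values are TMM-scaled, and standard errors came from the F statistic. Total counts of 12276313 to 16317672 per library limit precision for genes with few reads, and sources do not say that replicates were separate cultures, so p-values measure the spread between these libraries. Control replicates 2 and 3 differed least, with a chi-square of 1.64 per degree of freedom, above sampling noise, so no library was merged with another. DAPT replicates 2 and 3 were at 1.91. Replicate 1 stood further apart in both groups, at 6.26 and 6.13 from the other controls and at 4.46 and 4.26 from the other DAPT libraries.

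Members and lists were chosen with earlier results of these data known. The text names all members, some of the tested receptors, partners and paralogs (each could be named under the rule), the 3 largest calls without overlap in the other lists and a few listed pathway regulators, and for each member the 3 genes of highest r. Lists were described by counts and medians, without a set test. Alternatives were DESeq2 1.42.0, limma-voom (limma 3.58.1), the likelihood ratio test, RLE or no normalization factors, no filter, at least 10 counts in every library, an adjusted p-value under 0.01, a replicate block, each library left out and, added after the data were seen, both first libraries left out. The fit was tested on simulated data. A pathway list is not reported here. Strand orientation was checked in 438 gene pairs with at least 50 reads and 80% of the non-coding gene's exonic bases inside the opposite exons.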

Additional observations from a re-analysis of the deposited data

How the results depend on the processing

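All 74 log2 fold changes of the members under the alternatives were above 0. The choice of members and the groups without overlap made this sign likely beforehand, so nothing is read from it. Leaving out each library in turn gave 1.75 to 1.93 for *GDF15*, 1.85 to 2.55 for *INHBE*, 1.58 to 1.73 for *ADM2*, 0.64 to 0.74 for *STC2* and 0.25 to 0.31 for *VEGFA*. Beyond the spread between libraries, *ADM2* moved to 1.81 with both first libraries left out, and *VEGFA* to 0.33 with scaling by library size alone, which shifted the median of all genes to 0.06. *INHBE* could not be fitted with at least 10 counts in every library, because control replicate 3 held 6 reads. *FGF21* was fitted only without a filter, and no fold is drawn from it. An adjusted p-value under 0.01 gave 1516 higher genes over the whole table, and single libraries left out gave 1901 to 2726 higher and 2190 to 2892 lower.

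The receptor list had 3 higher genes, and 1 with DESeq2, 5 with library size alone, 1 without a filter, 6 with both first libraries left out, 0 at an adjusted p-value under 0.01 and 0 to 6 when a library was left out, while its lower genes numbered 5 without a filter. For binding proteins the higher genes numbered 2 without a filter. The 1 higher hypoxia gene became 0 with DESeq2, 2 with library size alone, 2 with both first libraries left out, 0 at an adjusted p-value under 0.01 and 0 to 1 when a library was left out. The causes were not tested beyond the construction of each alternative. Of 394 alternative values, 373 stayed within 1.5 times the count or within the spread between libraries.

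Replicate numbers did not pair the libraries, since the correlations of same-numbered deviations were 0.0173, 0.0252 and 0.00382. With the number as a replicate block, 5295 genes were called in place of 5281, 5100 of them shared, and the log2 fold changes were 1.86 for *GDF15*, 2.14 for *INHBE*, 1.65 for *ADM2*, 0.68 for *STC2* and 0.29 for *VEGFA*. Depth limits *INHBE* and the receptors with few reads, and leaves *FGF21* undecided.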
